A study of Mus musculus with 12 samples.

Results

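Potassium channel genes were examined in RNA from mouse spinal cord, with and without injury. They were all genes whose symbol in the authors' FPKM table is Kcn, further lower-case letters and then a number, such as Kcna1, Kcnab2 and Kcnk10, leaving out Kcnj8 and Kcnj10, with at least 20 counts summed over the 12 libraries. Of 92 identifiers with such a symbol, 83 reached 20 counts, out of 37991 identifiers in the count table. They stand for 81 symbols, because Kcnb2 and Kcnh8 each appear under 2 Ensembl identifiers between which reads may have been split. Just inside the threshold stood Kcne2 with 31 counts and just outside it Kcne3 with 16 counts. The other 8 left out were Kcnj1, Kcnmb3, Kcne1, Kcnk15, Kcnk18, Kcnk16, Kcna10 and Kcnv2. The 83 genes fall into 20 subfamilies by their letters, grouped here into 8 classes by role.

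All 12 mice were adults over 8 weeks old on a C57bl/6J background with the genotype Glast-CreERT2 x R26R-YFP x Rasless, so the controls carried the alleles too. In this line a tamoxifen-dependent Cre recombinase is made from the Glast promoter, which the submitters use to reach type A pericytes, cells of the vessel wall that contribute to the scar of the injured cord. Rasless cells, once Cre has acted, lack the Ras genes and stop dividing. The group Uninjured (libraries 376, 377, 385 and 467) received vehicle injections and no injury, and a cord segment was taken. The group SCI Veh (libraries 402, 428, 429 and 457) received vehicle for 5 days and, after 7 clearing days, a dorsal hemisection, and the injury site was taken 14 days later. The group SCI Tam (libraries 452, 513, 549 and 564) was treated in the same way with 2 mg of tamoxifen a day. The series describes the SCI Veh lesions as densely scarred by pericyte-derived cells and the SCI Tam lesions as scarred less. The values of the 4 libraries of a group are given in the order of these numbers, which the labels give and which are read here as 1 mouse each.

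Potassium channels let potassium leave or enter cells and so set the resting voltage and end the action potential. Voltage-gated channels are tetramers of alpha subunits that open on depolarisation, often with cytoplasmic partners, and calcium-activated channels open when calcium enters. Inward rectifiers and two-pore domain channels carry current near rest, in glia, immune cells and vessels as well as in neurons.

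Levels within a gene are TMM-normalised CPM (counts scaled by library size), and levels between genes are compared only on the authors' FPKM, which are scaled to transcript length. Library totals ran from 7967970 to 12581324 counts. A gene is called when its adjusted p is under 0.05 in edgeR's quasi-likelihood test, two-sided, with Benjamini-Hochberg adjustment over the 16473 genes that entered it. Of the 83 genes, 74 entered the test. Each log2 change below comes from that fit and stands beside its SE, and n is 4 libraries a group. In bulk RNA, fewer cells of a type and less RNA per cell cannot be told apart. Neuron markers were lower in SCI Veh than in Uninjured for 12 of 12 genes, with a median log2 change of -0.79, and their summed level was 7732 to 8305 CPM in Uninjured, 5138 to 6154 in SCI Veh and 5754 to 6619 in SCI Tam. Of a separate list of 5 motor neuron markers, 1 was lower in SCI Veh, with a median log2 change of -0.08. Their summed level was 242 to 309 CPM in Uninjured, 240 to 278 in SCI Veh and 203 to 348 in SCI Tam. Microglia markers summed to 178 to 215 CPM, 528 to 913 and 458 to 637 in the same order, macrophage markers to 15.0 to 38.3, 549 to 1328 and 287 to 973, and fibroblast markers to 83.4 to 421, 2611 to 7549 and 408 to 881. All marker genes of these lists were detected, and their part in the results below was not tested. Libraries 377, 385, 402, 429 and 457 held skeletal muscle transcripts, up to 934 CPM in sum. Transcripts from the X and Y chromosomes showed 1 male in Uninjured, 3 in SCI Veh and none in SCI Tam, and 3 of the 4 SCI Tam libraries (513, 549 and 564) carry sample names 106 to 108 where all others have names of 1 to 20.

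In SCI Veh, potassium channel genes stood well below their uninjured level across nearly all classes. Of the 74 genes tested, 58 were lower in SCI Veh than in Uninjured, 6 were higher and 10 were not called. The called share was 86.5% where 50.8% of all genes tested were called, and the lower calls were 78.4% of the channel genes where 24.1% of all genes were lower and 26.7% higher. The median log2 change was -0.79 over the channel genes and 0.02 over all genes. In 60 of the 74 genes the 4 SCI Veh libraries did not overlap the 4 Uninjured libraries, as against 51.0% of all genes tested. The channel median is the same to 2 decimals as that of the 12 neuron markers. Among those markers the changes ran from -1.09 (Syt1) to -0.26 (Nefl), and 16 of the 74 channel genes lay below the lowest of them. The 6 genes that rose were Kcnj15, Kcnn4, Kcnk6, Kcnj2, Kcne4 and Kcns1, which belong to 5 different classes. Voltage-gated sodium and calcium channel genes, set beside them, were lower for 24 of 32 tested, higher for 1, and had a median of -0.64. Without the 5 muscle-holding libraries, which leaves library 428 alone in SCI Veh, the channel median was -0.71 and edgeR called 0 channel genes, with 6 higher and 39 lower at an unadjusted p under 0.05.

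**Figure D1:**
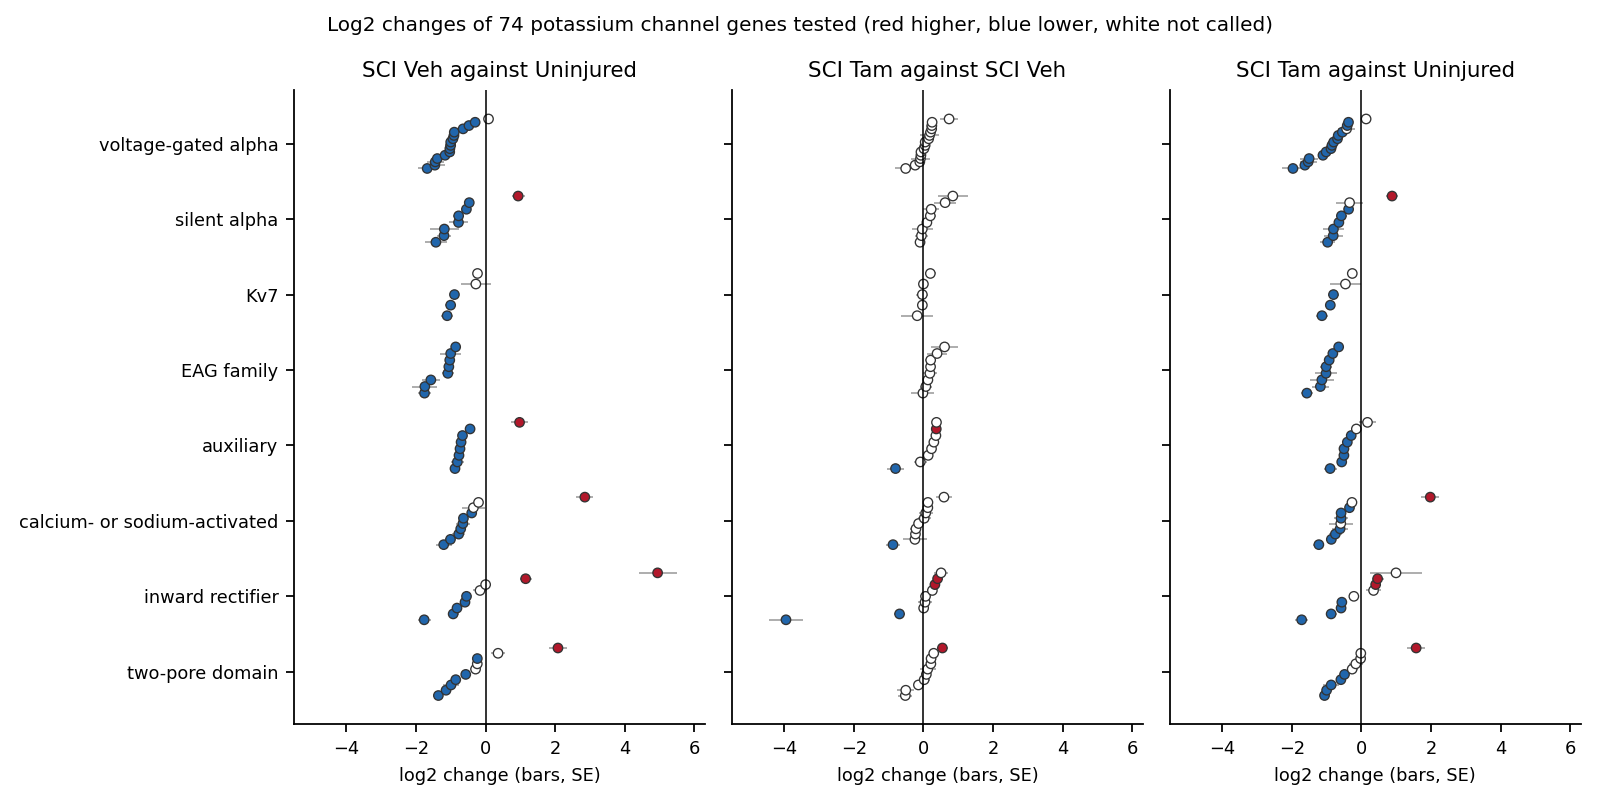
Log2 change of each of the 74 potassium channel genes tested (x axis), by class (y axis), in SCI Veh against Uninjured, SCI Tam against SCI Veh and SCI Tam against Uninjured. Points are genes, bars their SE, red is called higher, blue called lower and white not called; after injury most points lie to the left of 0, and between the SCI groups 66 of the 74 points are white.

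The level per length was led by a few genes of axons and fast-firing neurons. The highest mean in Uninjured was that of Kcnab2, a cytoplasmic beta subunit, at 239 ± 20.2 FPKM (SD, n = 4). Kcnc1 stood at 83.3 ± 2.82 and Kcna1 at 69.8 ± 4.20 FPKM, and the libraries of these genes overlapped neither each other nor those of the genes named next. Below them Kcnab1 (52.8 ± 5.24 FPKM), Kcnh2 (50.6 ± 3.33), Kcnab3 (47.1 ± 2.76), Kcna2 (44.2 ± 4.40) and Kcnk1 (39.3 ± 2.98) came close together, each overlapping the next one named. In all, 33 of the 83 genes had an uninjured mean of at least 10 FPKM, 37 lay between 1 and 10, and 13 were below 1. Kcna2 moved from rank 9 in Uninjured to rank 14 in SCI Veh and 18 in SCI Tam, while Kcnk1 moved from rank 10 to 5 in both.

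The summed level of the 83 genes was 1371 ± 18.3 FPKM in Uninjured, 827 ± 78.9 in SCI Veh and 898 ± 66.0 in SCI Tam. The sums and class shares include the FPKM of Kcnmb4 and Kcnj13, which stood far apart from their counts. The lowest Uninjured library summed to 1344 FPKM and the highest SCI library to 964 FPKM, so the sums of the injured cords lay below all uninjured ones. Voltage-gated alpha subunits made up 34.5% of the sum in Uninjured, 32.1% in SCI Veh and 31.3% in SCI Tam. Two-pore channels went from 8.62% to 10.7% and 10.9%, and inward rectifiers from 6.82% to 8.75% and 9.06%. The mix of classes therefore moved by a few percentage points while the total fell.

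**Figure D2:**
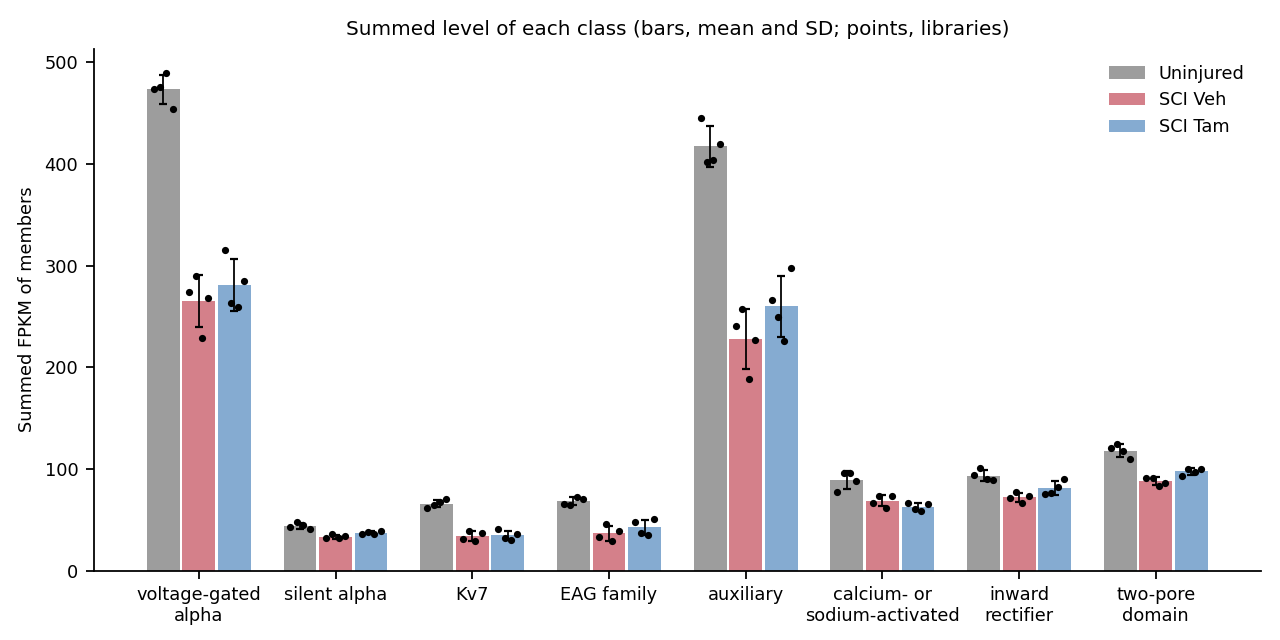
Summed FPKM of the members of each class (y axis) in Uninjured, SCI Veh and SCI Tam. Bars are means of 4 libraries with SD and points are libraries; voltage-gated alpha and auxiliary subunits hold most of the sum in every group, and both SCI groups are lower than Uninjured in every class.

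The voltage-gated alpha subunits of the Kcna, Kcnb, Kcnc and Kcnd subfamilies fell almost as a whole: 15 of the 16 tested were lower in SCI Veh, 0 were higher by edgeR (also 0 at an unadjusted p under 0.05), and the median log2 change was -0.9997. The exception was Kcna6. Among the Shaker-type Kcna genes, Kcna1 and Kcna2 form the channels that lie beside the nodes of myelinated axons. Kcna1 stood at 704, 775, 793 and 707 CPM in Uninjured, 567, 561, 504 and 511 in SCI Veh and 579, 490.3, 496 and 475 in SCI Tam. All injured libraries were lower than all uninjured ones, and the fall was modest (log2 change -0.48, SE 0.08, adjusted p = 0.000226). Kcna2 stood at 164, 183, 209.5 and 175 CPM in Uninjured, 66.7, 78.0, 67.0 and 68.8 in SCI Veh and 79.2, 49.0, 56.5 and 53.7 in SCI Tam. It fell further, to 0.383 of the uninjured level (log2 change -1.38, SE 0.13, adjusted p = 6.93e-06), again with no overlap.

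The ratio of Kcna2 to Kcna1 in FPKM was 0.605, 0.607, 0.678 and 0.636 in Uninjured, 0.304, 0.354, 0.344 and 0.343 in SCI Veh and 0.352, 0.258, 0.290 and 0.297 in SCI Tam. Every injured library therefore held less Kcna2 for each unit of Kcna1 than any uninjured library; the pair was chosen after its values were seen and the ratio was not tested. Kcna6, another Shaker-type alpha subunit, was not called. Its group means were 101 ± 8.86 CPM in Uninjured, 107 ± 5.47 in SCI Veh and 111 ± 13.9 in SCI Tam (log2 change 0.09, SE 0.09, adjusted p = 0.437 for SCI Veh against Uninjured). The Kcna6 to Kcna1 ratio lay at 0.352 to 0.485 in Uninjured, 0.502 to 0.577 in SCI Veh and 0.498 to 0.620 in SCI Tam.

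Kcna4, which carries fast-inactivating A-type current, stood at 17.2, 15.4, 15.1 and 15.4 CPM in Uninjured, 7.16, 8.64, 6.06 and 9.64 in SCI Veh and 10.8, 8.11, 7.46 and 10.1 in SCI Tam. All injured libraries were lower than all uninjured ones (log2 change -1.0004, SE 0.15, adjusted p = 0.000178 in SCI Veh). Kcna3, known from T cells and microglia as well as neurons, stood at 13.4, 7.88, 11.2 and 11.3 CPM in Uninjured, 2.56, 4.82, 4.78 and 3.92 in SCI Veh and 5.75, 2.80, 3.38 and 3.40 in SCI Tam. It was lower in all injured libraries (log2 change -1.44, SE 0.25, adjusted p = 0.000377), although microglia markers were higher in them. Kcna5 had a log2 change of -1.16 in SCI Veh (adjusted p = 0.00218).

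Kcnb2 encodes a delayed rectifier. Its entry ENSMUSG00000092083 stood at 8.26, 9.34, 10.6 and 10.4 CPM in Uninjured, 3.21, 2.47, 4.50 and 3.76 in SCI Veh and 4.79, 2.24, 1.47 and 1.65 in SCI Tam. The entry ENSMUSG00000090498 stood at 3.67, 3.51, 3.08 and 4.48 CPM in Uninjured, 1.07, 1.11, 1.47 and 0.941 in SCI Veh and 1.92, 0.839, 1.04 and 1.47 in SCI Tam. Both entries fell without overlap (log2 change -1.45, SE 0.29, adjusted p = 0.00115, and log2 change -1.67, SE 0.25, adjusted p = 0.000168).

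The Kcnc genes encode channels that allow fast repetitive firing. Kcnc1 stood at 387, 371, 385 and 369 CPM in Uninjured, 192, 212, 145 and 194 in SCI Veh and 240.0, 188, 176 and 222 in SCI Tam. The level in SCI Veh was 0.492 of the uninjured one, with no overlap (log2 change -1.02, SE 0.12, adjusted p = 2.14e-05). Kcnc2 and Kcnc4 fell by similar amounts, with log2 changes of -0.91 and -0.94 (adjusted p = 0.000362 and 3.67e-05).

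The Kcnd genes encode the somatodendritic A-type channels. Kcnd2 stood at 93.9, 84.2, 85.4 and 93.6 CPM in Uninjured, 54.2, 61.5, 51.5 and 61.4 in SCI Veh and 66.9, 58.6, 66.8 and 77.0 in SCI Tam. Its injured libraries were all lower (log2 change -0.64, SE 0.09, adjusted p = 6.88e-05). Kcnd3 stood at 67.7, 59.6, 60.3 and 77.4 CPM in Uninjured, 32.3, 39.4, 29.1 and 41.5 in SCI Veh and 46.9, 29.3, 33.5 and 38.2 in SCI Tam. It fell a little more (log2 change -0.90, SE 0.15, adjusted p = 0.00032). Kcnd1 stood at 30.0, 33.2, 28.8 and 30.5 CPM in Uninjured, 24.6, 25.4, 25.2 and 24.5 in SCI Veh and 25.1, 21.9, 24.2 and 23.7 in SCI Tam. Its drop was the smallest of the called alpha subunits but still without overlap (log2 change -0.30, SE 0.07, adjusted p = 0.00281).

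**Figure D3:**
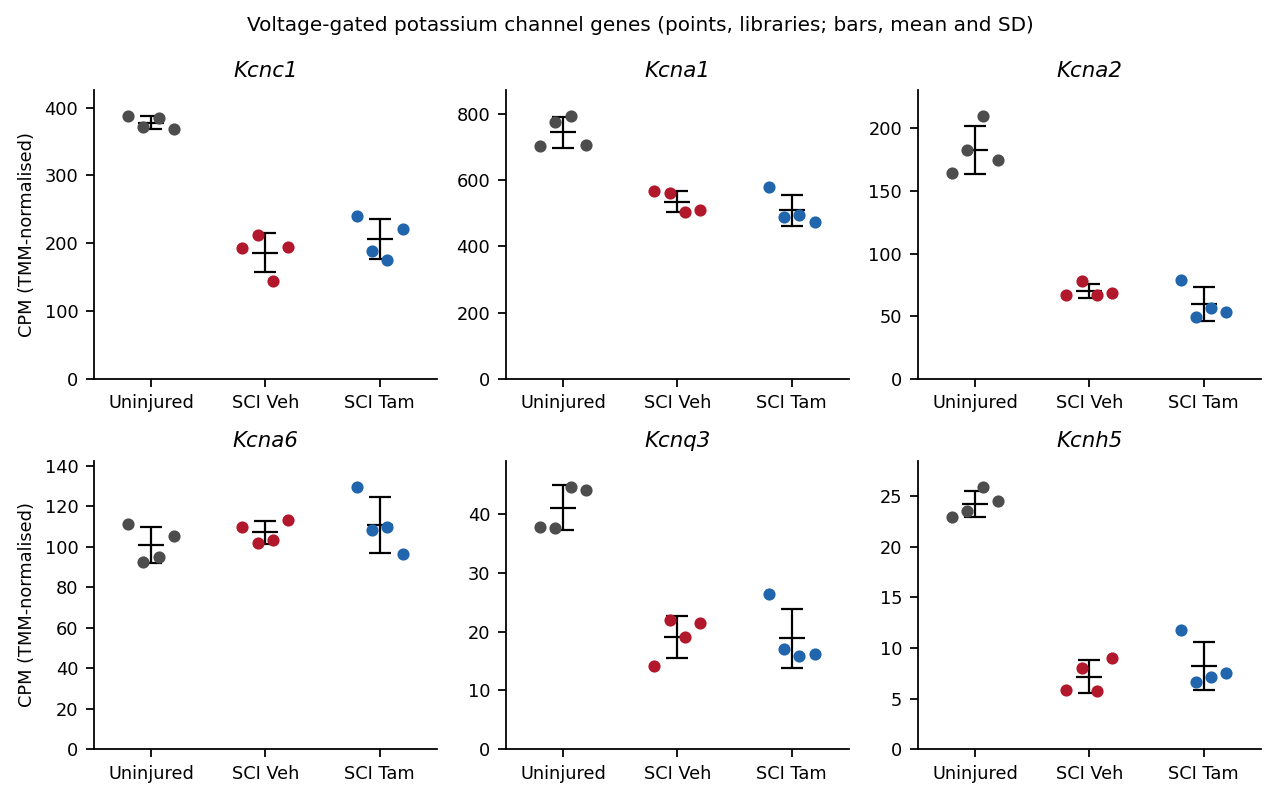
CPM of Kcnc1, Kcna1, Kcna2, Kcna6, Kcnq3 and Kcnh5 in each library (y axis, from 0) by group (x axis). Points are libraries and bars mean and SD; Kcna6 stays at 92.4 to 129.7 CPM in all 12 libraries while every injured library of the other 5 genes lies below every uninjured one.

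The auxiliary subunits were lower too, for 7 of 8 tested, with 1, Kcne4, higher. Kcnab genes encode beta subunits that bind Kcna channels. Kcnab2 stood at 600.1, 594, 582 and 549.6 CPM in Uninjured, 378, 384, 308 and 331 in SCI Veh and 415, 401, 364 and 465 in SCI Tam. It was lower in all injured libraries (log2 change -0.73, SE 0.09, adjusted p = 2.84e-05). Kcnab1 stood at 155, 158, 165 and 144 CPM in Uninjured, 99.9, 108, 83.7 and 102 in SCI Veh and 122, 129.7, 122 and 134 in SCI Tam. It fell by a similar amount in SCI Veh (log2 change -0.66, SE 0.08, adjusted p = 2.3e-05), and the SCI Tam libraries lay between the other groups without touching either. Kcnab3 stood at 106, 113, 107 and 90.6 CPM in Uninjured, 64.7, 70.0, 50.7 and 71.2 in SCI Veh and 71.5, 69.4, 58.7 and 82.3 in SCI Tam. All injured libraries lay below all uninjured ones (log2 change -0.70, SE 0.12, adjusted p = 0.000363 in SCI Veh), while SCI Veh and SCI Tam overlapped.

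Kcnip genes encode calcium-binding proteins that attach to Kcnd channels. Kcnip1 stood at 55.0, 51.8, 49.7 and 55.7 CPM in Uninjured, 26.3, 34.2, 24.0 and 31.3 in SCI Veh and 40.6, 33.1, 30.3 and 46.0 in SCI Tam. It had the largest fall of the 4 in SCI Veh (log2 change -0.88, SE 0.14, adjusted p = 0.000186). Kcnip2 stood at 19.4, 17.6, 19.2 and 20.9 CPM in Uninjured, 9.94, 12.3, 8.91 and 12.8 in SCI Veh and 11.5, 7.36, 8.41 and 14.1 in SCI Tam. It was lower in both injured groups (log2 change -0.81, SE 0.18, adjusted p = 0.00261). Kcnip4 stood at 41.9, 41.0, 40.6 and 47.7 CPM in Uninjured, 25.6, 27.4, 20.9 and 27.2 in SCI Veh and 34.9, 27.5, 25.1 and 42.1 in SCI Tam. In SCI Veh it was clear of Uninjured (log2 change -0.76, SE 0.15, adjusted p = 0.000878), whereas library 564 of SCI Tam reached the uninjured range. Kcnip3, which also binds DNA, changed by -0.44 (adjusted p = 0.0208), a call lost without library 428, 457 or 467 (adjusted p = 0.0553 to 0.0731). Limma on log2(FPKM + 1) did not call Kcnip3 either (-0.36, adjusted p = 0.0603).

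Kcne4, a single-pass subunit found in smooth muscle and immune cells, stood at 3.21, 3.34, 2.20 and 2.11 CPM in Uninjured, 5.56, 3.21, 5.24 and 7.13 in SCI Veh and 2.76, 3.63, 2.69 and 3.12 in SCI Tam. Library 428 lay within the uninjured range and the other 3 SCI Veh libraries lay above it. It was called higher (log2 change 0.98, SE 0.24, adjusted p = 0.00451), and in SCI Tam it was back near the uninjured level (log2 change 0.18, SE 0.25, adjusted p = 0.588).

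The silent alpha subunits, which make no channel alone and modify Kcnb channels, were lower for 7 of 8 tested and higher for Kcns1. Kcns1 stood at 10.3, 8.91, 9.66 and 9.48 CPM in Uninjured, 14.8, 17.0, 25.7 and 15.8 in SCI Veh and 20.5, 14.6, 21.2 and 14.4 in SCI Tam. All injured libraries exceeded all uninjured ones (log2 change 0.94, SE 0.18, adjusted p = 0.00103 in SCI Veh, and log2 change 0.88, SE 0.19, adjusted p = 0.00195 in SCI Tam). Its relatives went the other way. Kcns2 stood at 11.02, 11.1, 9.23 and 12.6 CPM in Uninjured, 4.06, 5.31, 3.77 and 6.04 in SCI Veh and 5.99, 5.03, 3.73 and 7.71 in SCI Tam. It was lower throughout the injured libraries (log2 change -1.19, SE 0.21, adjusted p = 0.000543). Kcns3 stood at 34.9, 31.3, 30.8 and 30.2 CPM in Uninjured, 20.3, 19.4, 13.9 and 20.9 in SCI Veh and 22.5, 18.7, 16.0 and 28.2 in SCI Tam. It fell less (log2 change -0.77, SE 0.16, adjusted p = 0.00172).

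Kcnf1 stood at 7.46, 8.23, 6.41 and 8.78 CPM in Uninjured, 2.67, 4.32, 1.75 and 2.90 in SCI Veh and 7.43, 2.98, 2.95 and 4.59 in SCI Tam. It fell in SCI Veh (log2 change -1.42, SE 0.31, adjusted p = 0.00188), but library 452 of SCI Tam lay inside the uninjured range. Kcng4, the most abundant silent subunit at 23.2 ± 2.48 FPKM in Uninjured, stood at 96.0, 116, 113 and 92.2 CPM in Uninjured, 76.4, 83.2, 69.3 and 73.1 in SCI Veh and 74.3, 92.8, 82.9 and 73.0 in SCI Tam. The fall was small (log2 change -0.47, SE 0.10, adjusted p = 0.00143). Kcng1 stood at 12.1, 13.4, 13.6 and 9.22 CPM in Uninjured, 7.80, 8.52, 8.17 and 8.54 in SCI Veh and 7.07, 9.23, 7.20 and 7.35 in SCI Tam. It was lower in all SCI Veh libraries (log2 change -0.55, SE 0.14, adjusted p = 0.00475), although limma on log2(FPKM + 1) did not call it (-0.34, adjusted p = 0.0882). Kcnv1 stood at 2.52, 2.57, 2.55 and 2.11 CPM in Uninjured, 0.855, 1.23, 2.02 and 1.49 in SCI Veh and 1.80, 0.839, 1.21 and 1.75 in SCI Tam. Its call in SCI Veh (log2 change -0.78, SE 0.28, adjusted p = 0.0333) was lost without any one of libraries 402, 428, 457, 376, 377 and 385 (adjusted p = 0.0615 to 0.0961). Kcng2, with a log2 change of -1.18, lost its call (adjusted p = 0.0337) without library 402, 429, 376, 377 or 467, at adjusted p = 0.0593 to 0.0960. Limma on log2(FPKM + 1) did not call Kcng2 either (-0.31, adjusted p = 0.355).

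Kcnq3 takes part in the M-current, which holds back repetitive firing from the start of the axon. Kcnq3 stood at 37.9, 37.7, 44.6 and 44.2 CPM in Uninjured, 14.1, 22.0, 19.1 and 21.4 in SCI Veh and 26.4, 17.1, 15.9 and 16.2 in SCI Tam. It was lower in all injured libraries (log2 change -1.10, SE 0.17, adjusted p = 0.000178), with library 452 the highest of them. Kcnq5 was lower as well (-1.0009, adjusted p = 0.000223). The weakly detected Kcnq1 was not called (-0.28, adjusted p = 0.621).

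Every EAG-family gene tested was lower in SCI Veh, 8 of 8, with a median log2 change of -1.07 and a range from -1.75 to -0.86. The family holds the ether-a-go-go, ERG and ELK channels. Kcnh2, the ERG channel best known for ending the cardiac action potential, stood at 169.7, 166, 173 and 178 CPM in Uninjured, 92.8, 112, 76.6 and 98.3 in SCI Veh and 109, 108, 89.3 and 131 in SCI Tam. It was the most abundant of the family and fell the least (log2 change -0.86, SE 0.12, adjusted p = 7.7e-05). Kcnh1 stood at 46.7, 46.8, 47.5 and 42.2 CPM in Uninjured, 20.8, 22.8, 20.9 and 23.8 in SCI Veh and 29.0, 21.0, 21.1 and 25.7 in SCI Tam. The injured libraries lay far below the uninjured ones (log2 change -1.05, SE 0.10, adjusted p = 9e-06). Kcnh5 stood at 22.9, 23.6, 25.9 and 24.5 CPM in Uninjured, 5.88, 8.02, 5.79 and 9.02 in SCI Veh and 11.7, 6.62, 7.11 and 7.53 in SCI Tam. Its fall was among the largest of all 74 genes (log2 change -1.75, SE 0.18, adjusted p = 1.38e-05). Kcnh3, Kcnh6 and Kcnh7 changed by -1.57, -1.03 and -1.08 (adjusted p = 0.000324, 0.000119 and 0.000182). The 2 entries of Kcnh8 changed by -1.74 and -0.9998 (adjusted p = 0.0014 and 0.0161). All 8 were also lower in SCI Tam than in Uninjured.

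In the class of calcium- or sodium-activated channels, set by subfamily letters and holding the Kcnmb subunits and Kcnu1 too, 7 of 10 tested fell in SCI Veh and 1 rose. Kcnma1 encodes the large-conductance calcium-activated channel. It stood at 40.7, 47.4, 56.3 and 46.0 CPM in Uninjured, 21.9, 22.3, 25.2 and 25.2 in SCI Veh and 28.9, 18.0, 16.9 and 18.5 in SCI Tam. All injured libraries were lower (log2 change -1.01, SE 0.15, adjusted p = 0.00017). Its inactivating partner Kcnmb2 stood at 5.05, 5.06, 5.80 and 5.27 CPM in Uninjured, 1.92, 3.21, 1.38 and 2.74 in SCI Veh and 4.31, 3.26, 2.60 and 3.77 in SCI Tam. It fell too (log2 change -1.20, SE 0.23, adjusted p = 0.000969), although limma on log2(FPKM + 1) did not call it (-0.51, adjusted p = 0.127). Kcnmb1 was not called (-0.35, adjusted p = 0.408).

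The small-conductance channels of the Kcnn subfamily, which contribute to the afterhyperpolarisation that follows action potentials, split. Kcnn3 stood at 10.1, 14.0, 12.04 and 11.6 CPM in Uninjured, 5.45, 7.65, 7.99 and 8.00 in SCI Veh and 8.15, 7.83, 8.93 and 6.98 in SCI Tam. It was lower without overlap (log2 change -0.71, SE 0.14, adjusted p = 0.00126). Kcnn1 stood at 24.2, 22.4, 19.9 and 18.1 CPM in Uninjured, 16.2, 19.6, 13.6 and 15.0 in SCI Veh and 14.7, 17.6, 17.6 and 19.9 in SCI Tam. Its groups overlapped, and the call (log2 change -0.40, SE 0.13, adjusted p = 0.0237) was lost without library 429, 457, 376 or 377 (adjusted p = 0.0513 to 0.0725). Limma on log2(FPKM + 1) did not call Kcnn1 either (-0.28, adjusted p = 0.0793). Kcnn2 stood at 43.7, 49.2, 52.8 and 40.9 CPM in Uninjured, 37.4, 50.9, 35.4 and 39.2 in SCI Veh and 36.4, 35.0, 31.1 and 44.8 in SCI Tam. It was not called in SCI Veh (log2 change -0.20, SE 0.13, adjusted p = 0.23), but was lower without library 428 (-0.34, adjusted p = 0.0369). The authors' FPKM leaned the other way, with a mean of 13.6 ± 1.56 in Uninjured and 16.3 ± 2.77 in SCI Veh.

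Kcnn4, the intermediate-conductance channel of microglia, lymphocytes and fibroblasts, rose. It stood at 0.918, 0.771, 0.615 and 0.878 CPM in Uninjured, 6.52, 3.83, 7.44 and 5.25 in SCI Veh and 3.60, 3.26, 3.29 and 2.48 in SCI Tam. The lowest SCI Veh library was several times the highest uninjured one, and the SCI Tam libraries lay between the other groups without overlap. The change was 7.22-fold in SCI Veh (log2 change 2.85, SE 0.25, adjusted p = 4.58e-06) and 3.94-fold in SCI Tam (log2 change 1.98, SE 0.26, adjusted p = 0.000102).

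The sodium-activated Kcnt channels fell. Kcnt1 stood at 139, 175, 166 and 164 CPM in Uninjured, 98.0, 113, 83.6 and 120.5 in SCI Veh and 112, 81.0, 75.4 and 86.6 in SCI Tam. Both injured groups were lower than Uninjured (log2 change -0.63, SE 0.13, adjusted p = 0.00148 in SCI Veh, and log2 change -0.86, SE 0.13, adjusted p = 0.000274 in SCI Tam), and SCI Tam was not called against SCI Veh (log2 change -0.23, SE 0.13, adjusted p = 0.244), with overlapping groups. Kcnt2 stood at 13.4, 15.2, 13.6 and 16.6 CPM in Uninjured, 6.52, 8.52, 9.46 and 9.88 in SCI Veh and 12.3, 7.18, 6.76 and 9.00 in SCI Tam. It was lower in all injured libraries (log2 change -0.77, SE 0.18, adjusted p = 0.00365). Kcnu1, whose channel is best known from sperm, stood at 2.64, 4.54, 3.69 and 4.30 CPM in Uninjured, 2.67, 2.35, 2.11 and 2.59 in SCI Veh and 2.76, 2.70, 2.08 and 2.66 in SCI Tam. Library 402 of SCI Veh and library 376 of Uninjured were alike, and the call (log2 change -0.65, SE 0.19, adjusted p = 0.0126) was lost without library 377 (adjusted p = 0.0505).

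The inward rectifiers divided most. Of 9 tested, 5 were lower, 2 were higher and 2 were not called in SCI Veh. Kcnj3, Kcnj6 and Kcnj9 encode G-protein-gated channels through which inhibitory transmitters silence neurons. Kcnj6 had the largest fall of all 74 genes by estimate, close to that of Kcnh5. It stood at 11.7, 13.8, 13.5 and 12.2 CPM in Uninjured, 2.99, 3.95, 3.21 and 4.86 in SCI Veh and 5.51, 3.73, 3.29 and 3.21 in SCI Tam. The highest injured library, 452, stayed well below the lowest uninjured one (log2 change -1.76, SE 0.19, adjusted p = 1.56e-05). Kcnj9 stood at 40.9, 45.2, 40.2 and 43.1 CPM in Uninjured, 20.4, 25.3, 19.6 and 23.7 in SCI Veh and 30.3, 19.8, 16.7 and 26.4 in SCI Tam. It fell without overlap (log2 change -0.93, SE 0.15, adjusted p = 0.000315). Kcnj3 stood at 61.5, 56.8, 58.7 and 61.6 CPM in Uninjured, 39.2, 43.6, 37.1 and 43.6 in SCI Veh and 59.0, 48.5, 44.3 and 53.8 in SCI Tam. It fell least of the 3 in SCI Veh (log2 change -0.55, SE 0.09, adjusted p = 0.000251), and the Kcnj6 to Kcnj3 ratio in FPKM went from 0.170 to 0.265 in Uninjured to 0.0921 to 0.143 in SCI Veh and 0.0905 to 0.129 in SCI Tam.

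Kcnj11, the pore of the ATP-sensitive channel of neurons, stood at 47.8, 49.3, 49.0 and 43.6 CPM in Uninjured, 26.4, 31.7, 21.8 and 27.9 in SCI Veh and 33.4, 28.7, 25.1 and 41.4 in SCI Tam. It fell (log2 change -0.82, SE 0.14, adjusted p = 0.000457). Kcnj12, a strong inward rectifier, changed by -0.59 (adjusted p = 0.00121). Kcnj14, known from motor neurons, was not called (-0.16, adjusted p = 0.569).

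Kcnj2, the strong inward rectifier of microglia, macrophages and vessels, rose. It stood at 21.9, 21.5, 16.0 and 18.3 CPM in Uninjured, 43.0, 37.6, 47.9 and 43.7 in SCI Veh and 37.3, 19.4, 27.3 and 23.6 in SCI Tam. Every SCI Veh library exceeded every uninjured one, and SCI Tam library 452 was close to them while the other SCI Tam libraries were lower. The change in SCI Veh was 2.22-fold (log2 change 1.15, SE 0.17, adjusted p = 0.000143).

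Kcnj15 showed the largest change of all 74 genes. It stood at 0.344, 0.257, 0.176 and 0.0878 CPM in Uninjured, 7.37, 5.55, 7.44 and 6.74 in SCI Veh and 0, 0.186, 0.26 and 1.19 in SCI Tam. The 0 in library 452 allows up to 0.360 CPM (3 counts), and the uninjured libraries held 1 to 3 counts each. The SCI Veh libraries alone were high and they lay far above all 8 others. SCI Veh exceeded Uninjured (log2 change 4.94, SE 0.55, adjusted p = 1.93e-05). In the authors' FPKM the mean was 0.101 ± 0.106 in Uninjured, 1.48 ± 0.346 in SCI Veh and 0.082 ± 0.102 in SCI Tam, so Kcnj15 stayed a minor channel gene per length even where it was highest. Without the 5 muscle-holding libraries the log2 change was 4.67 (adjusted p = 0.111). Fibroblast markers were also high in SCI Veh libraries, and muscle markers in 3 of them. Library 428, with 16.3 CPM of muscle markers in sum, had 5.55 CPM of Kcnj15, and the muscle-holding uninjured libraries 377 and 385 had 0.257 and 0.176 CPM. Which cells the Kcnj15 transcripts came from was not tested.

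The upstream sequence of Kcnj15 and Kcnj6, adjacent on chromosome 16, is shown because they changed most in opposite directions, and that of Kcnn4 and Kcna2 as a further gene that rose and a further gene that fell. Each line gives the 250 bases before the annotated start, 5′ to 3′ on the gene's strand, from RefSeq on GRCm38.p6, with every CG dinucleotide in capitals (the letters read the same on both strands). The positions are chr16:95257308-95257557 (plus strand) for Kcnj15, chr16:94997697-94997946 (minus strand) for Kcnj6, chr7:24370013-24370262 (plus strand) for Kcnn4 and chr3:107101317-107101566 (plus strand) for Kcna2.
Kcnj15: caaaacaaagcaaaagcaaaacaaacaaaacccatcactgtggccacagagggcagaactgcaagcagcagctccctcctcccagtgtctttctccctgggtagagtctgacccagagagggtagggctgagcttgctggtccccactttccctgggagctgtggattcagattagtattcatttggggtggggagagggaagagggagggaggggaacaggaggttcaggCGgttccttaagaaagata
Kcnj6: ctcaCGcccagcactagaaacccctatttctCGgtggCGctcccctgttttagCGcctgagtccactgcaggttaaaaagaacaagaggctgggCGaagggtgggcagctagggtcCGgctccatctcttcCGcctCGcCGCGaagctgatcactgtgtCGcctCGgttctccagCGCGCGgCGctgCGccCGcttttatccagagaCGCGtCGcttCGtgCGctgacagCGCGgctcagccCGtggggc
Kcnn4: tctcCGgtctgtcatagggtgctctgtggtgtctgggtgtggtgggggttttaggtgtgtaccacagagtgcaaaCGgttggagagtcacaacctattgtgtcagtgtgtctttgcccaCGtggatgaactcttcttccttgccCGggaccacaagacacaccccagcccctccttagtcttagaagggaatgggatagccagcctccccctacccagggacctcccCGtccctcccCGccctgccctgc
Kcna2: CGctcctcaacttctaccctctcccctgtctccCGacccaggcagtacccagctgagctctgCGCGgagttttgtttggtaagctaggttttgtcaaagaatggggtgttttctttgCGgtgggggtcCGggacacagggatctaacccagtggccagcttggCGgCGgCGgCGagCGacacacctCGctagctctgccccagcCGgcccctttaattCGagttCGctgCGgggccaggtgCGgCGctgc

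Over the full 300 bases of the promoter table, 250 before and 50 after the start, the Kcnj15 promoter held 2 CG dinucleotides and that of Kcnj6 held 30. Of the 32851 promoters in the table, 23.3% held 2 or fewer and 11.7% held 30 or more. The Kcnn4 promoter held 6 (47.9% of all promoters had 6 or fewer) and the Kcna2 promoter 31 (10.6% had 31 or more). The low count was not shared by all genes that rose, since Kcne4 had 9, Kcnj2 18 and Kcns1 22. Over the 5 promoters found for genes higher in SCI Veh the median was 9, with a range of 2 to 22. Over the 55 promoters of the lower genes it was 10, with a range of 1 to 41. Promoters were found for 58 of the 81 symbols, with a median of 9 CG dinucleotides over their 82 starts and 7 over the whole table. The dinucleotide count describes the reference sequence alone, as no methylation or binding was measured here.

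Kcnj16, whose subunit joins that of Kcnj10 in glia, stood at 93.4, 95.2, 96.0 and 85.8 CPM in Uninjured, 98.1, 98.4, 85.2 and 89.9 in SCI Veh and 93.7, 108, 154 and 136 in SCI Tam. SCI Veh and Uninjured were alike (log2 change 0.00, SE 0.12, adjusted p = 0.984), and 3 of the SCI Tam libraries were above all others.

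Two-pore channels were lower for 6 of 10 tested in SCI Veh and higher for Kcnk6. Kcnk6, known from macrophages and microglia, stood at 4.71, 5.40, 4.31 and 4.48 CPM in Uninjured, 26.3, 13.7, 26.8 and 13.2 in SCI Veh and 17.3, 14.6, 15.0 and 9.55 in SCI Tam. All injured libraries were above all uninjured ones, with SCI Veh libraries 402 and 429 the highest and the other SCI Veh libraries within the SCI Tam range. The rise was 4.23-fold in SCI Veh (log2 change 2.08, SE 0.26, adjusted p = 4.65e-05) and 2.97-fold in SCI Tam (log2 change 1.57, SE 0.27, adjusted p = 0.0005).

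Kcnk12 and Kcnk9 were the clearest falls of the class. Kcnk12 stood at 23.3, 21.1, 23.0 and 20.4 CPM in Uninjured, 7.80, 9.51, 8.54 and 8.54 in SCI Veh and 11.3, 10.8, 8.85 and 11.3 in SCI Tam. It fell to 0.392 of the uninjured level in SCI Veh (log2 change -1.35, SE 0.10, adjusted p = 2.81e-06). Kcnk9, an acid-sensitive channel, stood at 39.5, 48.2, 43.3 and 39.6 CPM in Uninjured, 22.3, 25.9, 23.5 and 22.7 in SCI Veh and 23.0, 20.6, 22.5 and 19.4 in SCI Tam. It fell without overlap (log2 change -0.85, SE 0.09, adjusted p = 1.16e-05). Kcnk10, a mechanically and lipid-gated channel, stood at 10.2, 11.5, 12.4 and 10.9 CPM in Uninjured, 5.24, 5.43, 3.95 and 5.88 in SCI Veh and 8.03, 6.71, 8.67 and 6.52 in SCI Tam. SCI Tam lay between SCI Veh and Uninjured without touching either (log2 change -1.13, SE 0.14, adjusted p = 4.68e-05 in SCI Veh). Kcnk3 and Kcnk4 fell by smaller or similar amounts (-0.57 and -0.99, adjusted p = 8e-05 and 0.00271).

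Kcnk1, the most abundant two-pore gene, stood at 111, 106, 101 and 93.3 CPM in Uninjured, 95.8, 96.2, 81.3 and 76.1 in SCI Veh and 83.0, 116, 105 and 102 in SCI Tam. The groups overlapped and it was not called (log2 change -0.24, SE 0.10, adjusted p = 0.0747), although it was called lower without library 452, 402 or 428 (adjusted p = 0.0200, 0.0482 and 0.0393). Kcnk2 stood at 39.1, 35.5, 29.0 and 31.1 CPM in Uninjured, 28.0, 30.9, 20.9 and 30.7 in SCI Veh and 34.3, 23.3, 22.7 and 32.0 in SCI Tam. It was not called either (log2 change -0.29, SE 0.16, adjusted p = 0.158). Kcnk13, the channel that sets the resting voltage of microglia, stood at 43.8, 38.6, 43.4 and 46.8 CPM in Uninjured, 35.8, 34.3, 34.4 and 41.9 in SCI Veh and 44.6, 40.3, 44.9 and 40.3 in SCI Tam. It was called slightly lower in SCI Veh (log2 change -0.23, SE 0.08, adjusted p = 0.0328), where microglia markers were higher, and the call was lost without any one of libraries 402, 428, 429, 376, 385 and 467 (adjusted p = 0.0562 to 0.0945). Kcnk5 was not called (0.36, adjusted p = 0.151).

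**Figure D4:**
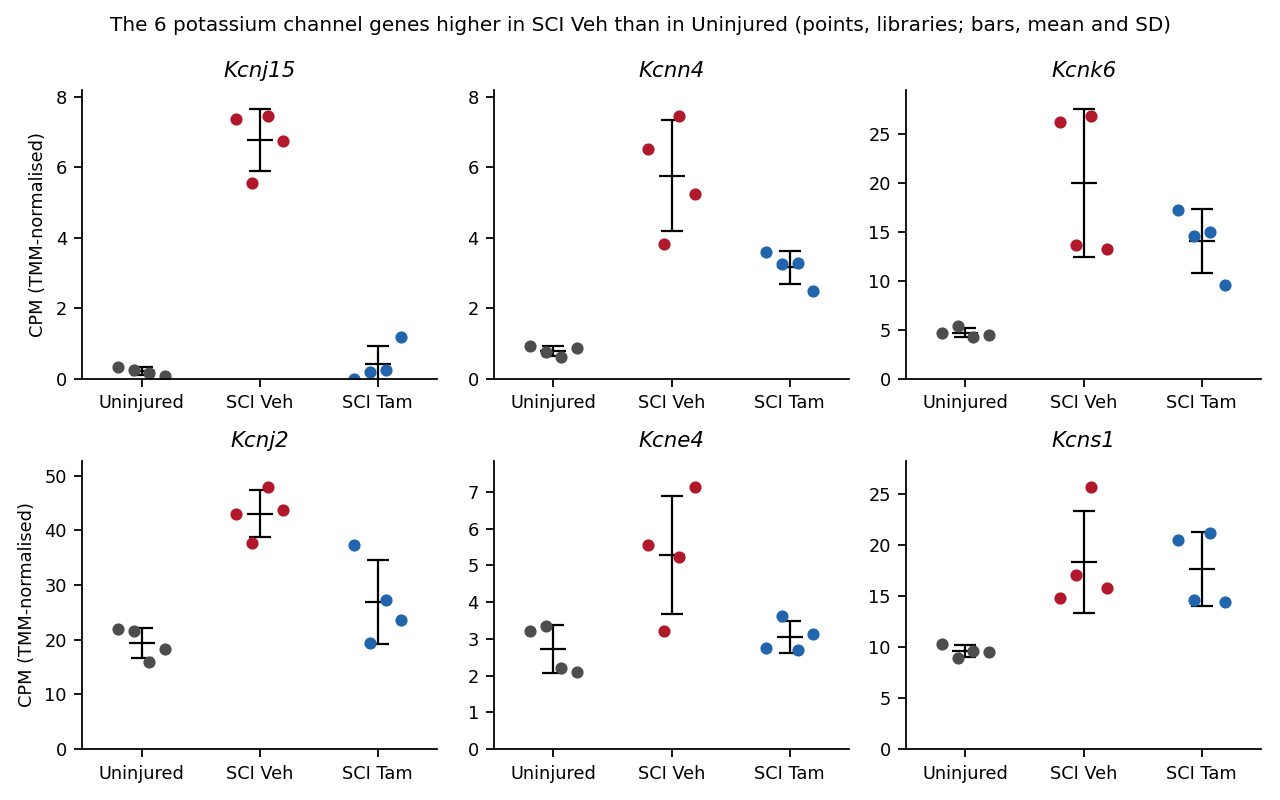
CPM of Kcnj15, Kcnn4, Kcnk6, Kcnj2, Kcne4 and Kcns1, the 6 genes higher in SCI Veh than in Uninjured, in each library (y axis, from 0) by group (x axis). Points are libraries and bars mean and SD; Kcnj15 is at 5.55 to 7.44 CPM in SCI Veh and at most 1.19 CPM elsewhere, while Kcns1 is as high in SCI Tam as in SCI Veh.

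In SCI Tam against SCI Veh few channel genes differed. Of 74 tested, 4 were higher and 4 lower in SCI Tam, 10.8% where 16.1% of all genes tested were called, 7.79% higher and 8.33% lower. The groups did not overlap in 6 of the 74, as against 16.4% of all genes. The median log2 change was 0.09 over the channel genes and 0.25 over the 12 neuron markers, of which 2 were called, both higher. The lower genes were Kcnj15, Kcnn4, Kcnj2 and Kcne4, and the higher ones Kcnab1, Kcnj3, Kcnk10 and Kcnj16. Their changes after injury were given above from a comparison that shares the SCI Veh libraries.

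Kcnj15 was lower in SCI Tam (log2 change -3.95, SE 0.49, adjusted p = 0.000835), and with the highest SCI Tam library, 564, left out the log2 change was -5.29 (adjusted p = 0.000191). Without the muscle-holding libraries it was -3.66 (adjusted p = 0.645). Kcnn4 was lower (log2 change -0.87, SE 0.21, adjusted p = 0.0168), a call lost without library 564 or 429 (adjusted p = 0.0552 and 0.0543). Kcnj2 was lower (log2 change -0.69, SE 0.17, adjusted p = 0.0186), a call lost without library 513 or 564 (adjusted p = 0.0527 and 0.0596). Kcne4 was lower (log2 change -0.80, SE 0.24, adjusted p = 0.0397) with overlapping groups, and the call was lost without any one of libraries 513, 549, 564, 402, 429 and 457 (adjusted p = 0.0624 to 0.121). All 5 fibroblast markers were lower in SCI Tam as well, and 1 of 7 macrophage and 1 of 6 microglia markers. Kcnk6 and Kcns1 were not called between the SCI groups (log2 change -0.51, adjusted p = 0.162, and -0.06, adjusted p = 0.851).

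The 4 genes higher in SCI Tam differed by less. Kcnab1 was higher in all SCI Tam libraries than in all SCI Veh libraries (log2 change 0.37, SE 0.08, adjusted p = 0.00873). Kcnj3 was higher without overlap (log2 change 0.33, SE 0.09, adjusted p = 0.0262), a call lost without library 564, 402 or 429 (adjusted p = 0.0604 to 0.0736). Kcnk10 was higher without overlap (log2 change 0.54, SE 0.15, adjusted p = 0.0268), a call lost without library 549 or 429 (adjusted p = 0.0623 and 0.0555). Kcnj16 was higher in SCI Tam (log2 change 0.41, SE 0.12, adjusted p = 0.0433) with library 452 at the level of SCI Veh, and 10 of the 12 libraries, each left out alone, ended its call (all but 452 and 467, adjusted p = 0.0502 to 0.121).

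Library 452 is the only SCI Tam library outside the sample names 106 to 108. With a term for that name series in the edgeR fit, 0 channel genes were higher (17 at an unadjusted p under 0.05) and 1, Kcnj15, was lower in SCI Tam than in SCI Veh. That value rests on library 452 alone for SCI Tam, with 0 counts of Kcnj15, so its fitted log2 change of -9.16 (adjusted p = 0.033) is not a size. The term moved Kcnj16 from 0.41 to 0.01 and Kcnj2 from -0.69 to -0.21, while Kcnab1 stood at 0.31 (adjusted p = 0.282) and Kcnj3 at 0.53 (adjusted p = 0.0885). With a term for sex 1 gene was higher and 2 were lower. Without library 452, 6 were higher and 8 lower, and 6 genes gained a call. Kcna2 (log2 change -0.40, adjusted p = 0.00682), Kcnb2 (entry ENSMUSG00000092083, -0.97, 0.00885), Kcnma1 (-0.41, 0.0164) and Kcnt1 (-0.35, 0.0401) were then lower in SCI Tam, and Kcnk1 (0.31, 0.0233) and Kcnj14 (0.71, 0.00270) higher. Without library 549, 7 were higher and 3 lower, with Kcnab2 (0.29, 0.0456), Kcnip1 (0.47, 0.0384), Kcnip4 (0.46, 0.0460), Kcnk12 (0.37, 0.0293) and Kcna5 (0.88, 0.0419) among the higher ones. Library 452 stood highest of the SCI Tam libraries for Kcna2, Kcnma1, Kcnt1 and that Kcnb2 entry, and library 549 lowest of them for the other 5.

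**Figure D5:**
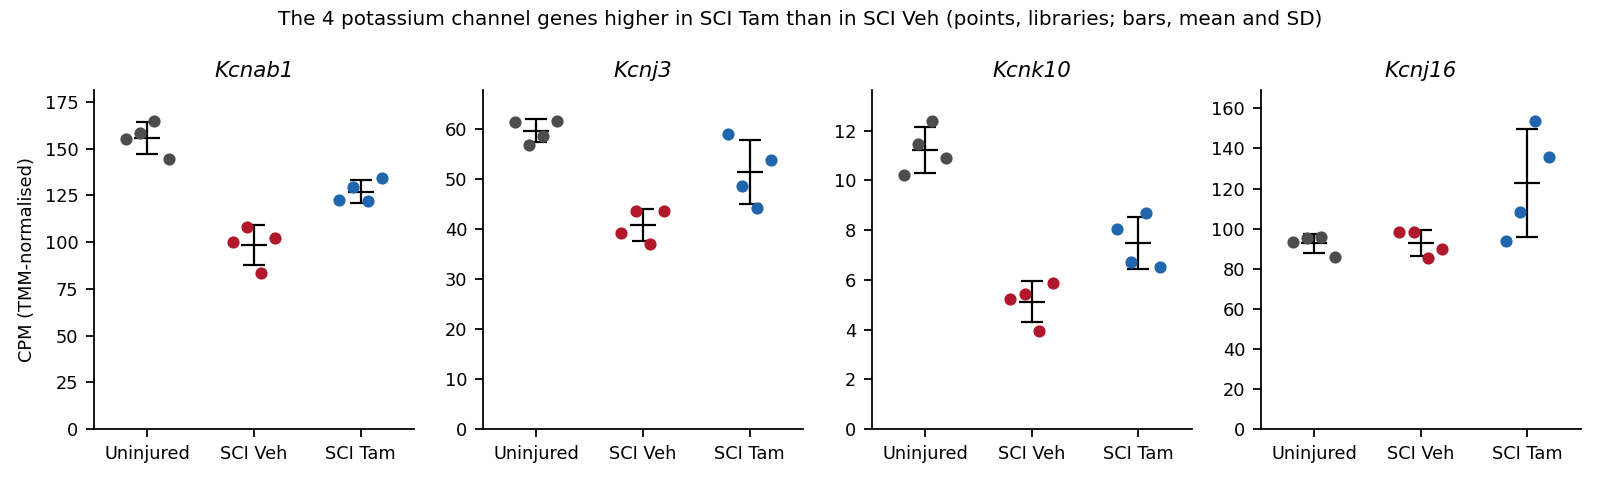
CPM of Kcnab1, Kcnj3, Kcnk10 and Kcnj16, the 4 genes higher in SCI Tam than in SCI Veh, in each library (y axis, from 0) by group (x axis). Points are libraries and bars mean and SD; the first 3 genes lie highest in Uninjured, lowest in SCI Veh and between them in SCI Tam, though a Kcnj3 library of SCI Tam reaches 59.0 CPM, and Kcnj16 reaches 108 to 154 CPM in 3 SCI Tam libraries only.

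In SCI Tam against Uninjured, which shares its uninjured libraries with the first comparison, most channel genes were again lower. Of 74 genes 53 were lower and 5 higher, a called share of 78.4% where 48.9% of all genes were called (26.3% higher, 22.7% lower). The median log2 change was -0.59, and -0.51 for the neuron markers. In 50 of the 74 the groups did not overlap, as against 41.1% of all genes. The 5 higher genes were Kcnn4, Kcnk6, Kcns1, Kcnj2 (log2 change 0.47, SE 0.17, adjusted p = 0.0406) and Kcnj16 (log2 change 0.41, SE 0.12, adjusted p = 0.0159). The call of Kcnj16 was lost without library 549 (adjusted p = 0.0516), and that of Kcnj2 without any one of 9 libraries (452, 549, 402, 428, 429, 457, 377, 385 and 467, adjusted p = 0.0502 to 0.132). Kcnj15 was not called (log2 change 0.99, SE 0.76, adjusted p = 0.298). With the sample name term, 5 genes were higher and 16 lower, and without libraries 513, 549 and 564, which leaves library 452 alone in SCI Tam, 4 were higher and 17 lower. Without the muscle-holding libraries 3 were higher and 34 lower.

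The deepest falls in SCI Tam against Uninjured were those of Kcnb2 (entry ENSMUSG00000092083, log2 change -1.96, SE 0.30, adjusted p = 0.000286), Kcnj6 (log2 change -1.72, SE 0.19, adjusted p = 4.47e-05) and Kcna2 (log2 change -1.62, SE 0.13, adjusted p = 1.43e-05). Kcna2 in particular reached 49.0 to 79.2 CPM, from 164 to 209.5 CPM in Uninjured. Kcna1 (log2 change -0.55, SE 0.08, adjusted p = 0.000145), Kcnab2 (log2 change -0.50, SE 0.09, adjusted p = 0.000564), Kcnab3 (log2 change -0.56, SE 0.12, adjusted p = 0.00196) and Kcnc1 (log2 change -0.87, SE 0.12, adjusted p = 0.000113) were lower as well. So were the M-current gene Kcnq3 (log2 change -1.13, SE 0.17, adjusted p = 0.000232) and the calcium-activated Kcnma1 (log2 change -1.22, SE 0.15, adjusted p = 9.48e-05). Kcnj3 was not called by edgeR (log2 change -0.22, adjusted p = 0.0553), but was lower with DESeq2's Wald test (-0.23, adjusted p = 0.0443), limma-voom (-0.23, adjusted p = 0.0427), and limma on log2(FPKM + 0.1) and log2(FPKM + 1) (-0.55 and -0.53, adjusted p = 0.000635 and 0.000619). It was also lower in edgeR with DESeq2 size factors (adjusted p = 0.0438) and without library 452, 428, 429 or 457 (adjusted p = 0.00837 to 0.0485). Not called by edgeR either were Kcnip3, Kcna5, Kcnk13, Kcng2 and Kcnn1. Kcnn2 was called lower (log2 change -0.34, adjusted p = 0.0498) on counts alone, since its FPKM gave a change of 0.11 in the other direction on log2(FPKM + 1). 

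Some of the lower calls in SCI Tam against Uninjured rested on single libraries. Kcnf1 (-0.80) lost its call without any one of libraries 513, 549, 564, 376, 377 and 467 (adjusted p = 0.0624 to 0.113). Kcnip4 (-0.40) lost it without 513, 549 or any uninjured library (0.0515 to 0.105), and Kcnmb2 (-0.61) without 513, 549, 564 or any uninjured library (0.0533 to 0.115). Kcnn2 lost it without 452, 513, 549, 457, 376, 377 or 385 (0.0520 to 0.143). Kcnu1 (-0.58) lost it without 549, 377 or 467 (0.0669 to 0.0797), and Kcnv1 (-0.81) without 513, 549, 376, 377 or 385 (0.0594 to 0.0908). The Kcnh8 entry ENSMUSG00000073383 (-1.02) lost it without 513 or 549 (0.0553 and 0.0519). The other 49 of the 58 calls held with each of the 12 libraries left out in turn.

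Genes whose products sit with these channels were read from a list of 27, of which 25 were tested. In SCI Veh against Uninjured 16 were lower (64.0%, where 24.1% of all genes were lower) and 1 higher (4.0%, where 26.7% were). In SCI Tam against SCI Veh 0 were lower by edgeR (1 at an unadjusted p under 0.05, where 8.33% of all genes were called lower) and 2 were higher, 8.0%, close to the 7.79% of all genes. In SCI Tam against Uninjured 16 were lower (64.0%, where 22.7% of all genes were) and 2 higher (8.0%, where 26.3% were). Dpp6, a partner of Kcnd channels, changed by -0.75 in SCI Veh (adjusted p = 3.64e-05), and Amigo1, a partner of Kcnb channels, by -0.70 (adjusted p = 0.000219). Cntnap2, which holds Kcna channels beside the node, changed by -0.96 (adjusted p = 9.07e-06), close to midway between Kcna1 and Kcna2. Abcc8, the sulphonylurea receptor that pairs with Kcnj11 in neurons, changed by -0.64 (adjusted p = 0.00297), while the vascular receptor Abcc9 was not called (-0.17, adjusted p = 0.343). Hcn4, a relative that carries mixed cation current, changed by -1.59 (adjusted p = 1.97e-05). Hcn2 was not called (-0.14, adjusted p = 0.142).

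Lgi4, a secreted protein of myelinating glia, was the partner gene that rose in SCI Veh (0.67, adjusted p = 3.9e-05). Lgi1, a secreted protein that binds Adam22 and adjusts Kcna channels, stood at 88.0, 81.3, 87.7 and 83.6 CPM in Uninjured, 85.2, 98.5, 82.0 and 90.0 in SCI Veh and 93.4, 150.2, 161 and 157 in SCI Tam. Like Kcnj16 it was high in SCI Tam libraries 513, 549 and 564 and not in 452 (log2 change 0.66, SE 0.14, adjusted p = 0.00872 against SCI Veh). Dpp10, the other Kcnd partner, was also higher in SCI Tam than in SCI Veh (0.45, adjusted p = 0.0324).

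Several of the genes are neighbours. In the RefSeq annotation of GRCm38.p6, no protein-coding gene stood between Kcnj6 and Kcnj15 on chromosome 16, Kcnj16 and Kcnj2 on 11, Kcnip1 and Kcnmb1 on 11, Kcna3 and Kcna2 on 3, and Kcna5, Kcna1 and Kcna6 in turn on 6. Neighbours moved apart as well as together. Kcnj6 had the largest fall and Kcnj15 the largest rise of all 74 genes in SCI Veh. Their upstream sequences, shown above, differ in CG content, whose relation to the changes was not tested. Kcnj2 rose in SCI Veh where Kcnj16 was not called, and in SCI Tam against SCI Veh Kcnj16 was higher and Kcnj2 lower. Kcna2 and Kcna3 both fell by more than 1.3 on the log2 scale. Of the 3 genes in a row on chromosome 6, Kcna5 and Kcna1 fell and Kcna6 did not.

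The remaining 9 genes were too low for the test, and their levels are given without one. Kcnmb4, the neuronal partner of Kcnma1, was at 0.598 ± 0.349 CPM in Uninjured, 0.608 ± 0.164 in SCI Veh and 0.637 ± 0.169 in SCI Tam, with library values of 0.574, 1.03, 0.615 and 0.176, 0.641, 0.494, 0.827 and 0.47, and 0.479, 0.652, 0.867 and 0.551. The authors' FPKM gave it 10.8 ± 1.85, 9.33 ± 1.26 and 10.6 ± 1.28, the level of a well-expressed gene. The ratio of CPM to FPKM, which for the 83 genes had a median of 3.69 kilobases, was 0.0600 for Kcnmb4 and 0.422 for Kcnj13, lower than for all others. The counts and FPKM of these 2 genes stood far apart, and no change is read from either.

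Kcnj13, a channel of the choroid plexus and other transporting epithelia, was at 1.38, 1.29, 0.703 and 0 CPM in Uninjured, 0.321, 0.494, 0.0918 and 0.862 in SCI Veh and 0.12, 0.373, 0 and 0.459 in SCI Tam. The levels were near the detection limit in all groups. Kcna7, a muscle channel, was at 0.115, 0.857, 0 and 0 CPM in Uninjured, 0.855, 0.123, 0.735 and 2.90 in SCI Veh and 0, 0, 0 and 0.0918 in SCI Tam. Its highest values were in libraries 457, 377, 402 and 429, all of which held skeletal muscle transcripts. The other 6, Kcnh4, Kcne2, Kcnj4, Kcnj5, Kcng3 and Kcnk7, had 31 to 78 counts in total over the 12 libraries. Counts and FPKM of Kcnj14 moved apart in the 3 libraries of sample names 106 to 108 against the other 9, by 0.58 on the log2 scale, the only one of 69 channel genes compared (1.45%, and 3.26% of all genes). Its CPM of 17.1, 37.6, 39.3 and 31.0 in SCI Tam, against 22.1, 24.1, 19.6 and 22.7 in SCI Veh, therefore carries that difference.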

How the data were processed

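Bulk RNA-seq of 12 spinal cord libraries was used, 3 groups of 4. The submitters' processing notes name TopHat, HTSeq, Cufflinks, Picard and the mm9 build. Strandedness and the handling of multiply matching reads were not given in the sources used here. Deposited by the authors were raw counts (whole numbers) for 37991 Ensembl identifiers, and FPKM values. Symbols came from the FPKM table. Reads carry no molecular identifiers, so counting limits cover sampling alone.

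These counts were the input to edgeR 4.0.16 (R 4.3.3). Its filterByExpr function, with a minimum count of 10 and a minimum total of 15, left 16473 genes. A single quasi-likelihood model with TMM factors, 1 mean per group and 9 residual degrees of freedom gave two-sided tests, with Benjamini-Hochberg adjusted p under 0.05 as a call. An SE is the absolute log2 change over the square root of F. The fit was also run on simulated counts drawn from its own estimates of spread, with few genes changed. Such counts hold no sex or sample name differences, so no conclusion is drawn from them here. DESeq2 1.42.0 and limma 3.58.1 gave alternatives. Each p-value sets a difference between group means against the spread between these libraries, which the fit estimates over all 3 groups. A count of 0 allows up to 3 counts. FPKM, the authors' unit per length, were used for levels between genes and for limma on log2(FPKM + 1) and log2(FPKM + 0.1).

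The genes, classes, marker and partner lists were chosen with earlier results of these data known, and the muscle-holding libraries were taken from an earlier analysis of them. Library values are printed for the 2 genes with the smallest adjusted p each way per subfamily and comparison, for all called between the SCI groups, for the 8 highest in FPKM and for a list chosen with them; other genes are given by log2 change, and subunit ratios and shown promoters were chosen after their values were seen. The annotation and sequences are from RefSeq on GRCm38.p6, a later build than the files, and were used only for neighbours and promoters. Protein sequences were not analysed here, and some genes that enter the counts are not reported here by name.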

Additional observations from a re-analysis of the deposited data

Results flagged for a closer look

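Among 222 sets of 4 libraries (74 genes in 3 groups), 8 had 1 library whose gap to the nearest other exceeded Dixon's 95% limit for sets of that size, a share of 3.6%, where chance gives about 1 set in 20. In SCI Tam, library 452 was above the rest for Kcnq3 (26.4 CPM, others 15.9 to 17.1) and Kcnma1 (28.9 CPM, others 16.9 to 18.5). Library 513 was above the rest for Kcng1 (9.23 CPM, others 7.07 to 7.35), and library 549 below the rest for Kcnu1 (2.08 CPM, others 2.66 to 2.76). In SCI Veh, library 402 was below the rest for Kcnn3 (5.45 CPM, others 7.65 to 8.00). In Uninjured, library 467 was below the rest for Kcnh1 (42.2 CPM, others 46.7 to 47.5) and Kcnv1 (2.11 CPM, others 2.53 to 2.57), and library 376 above the rest for Kcna4 (17.2 CPM, others 15.1 to 15.4). No such SCI Veh or SCI Tam value reached the uninjured range of its gene except that of Kcng1, whose lowest uninjured library was at 9.22 CPM.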

How the results depend on the processing

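No paired analysis was possible because the groups share no replicate numbers. In SCI Veh against Uninjured (6 higher, 58 lower), the counts stayed at 5 to 7 higher and 49 to 60 lower in every alternative run but 1. Without the 5 muscle-holding libraries they were 0 and 0. In that fit 1 SCI Veh library is left, which is assumed to vary like the other groups. Of the 64 calls, 58 held with each library left out in turn. In SCI Tam against SCI Veh (4 higher, 4 lower), the higher count was 1 with limma on log2(FPKM + 0.1), 1 on log2(FPKM + 1), 1 in a fit of the 8 libraries compared and 0 at a fold of at least 1.5. The counts were 0 higher and 1 lower with the sample name term, 1 and 2 with the sex term, 0 and 1 without sample names 106 to 108, and 0 and 0 without the muscle-holding libraries, where edgeR gave 1 higher and 2 lower at an unadjusted p under 0.05. With 1 library left out they ran from 1 to 7 higher and from 2 to 8 lower. Kcnj15 lost its call without the muscle-holding libraries (log2 change -3.66, adjusted p = 0.645). With the sample name term and without sample names 106 to 108 its estimates were -9.16 and -9.13, which rest on library 452 alone in SCI Tam, with 0 counts, and give no size. In SCI Tam against Uninjured (5 higher, 53 lower), the lower count was 16 with the sample name term and 17 without sample names 106 to 108. Without the muscle-holding libraries the counts were 3 higher and 34 lower, and at a fold of at least 1.5 they were 3 and 37. With 1 library left out they ran from 3 to 5 higher and from 47 to 55 lower. Kcnn2 changed direction there, from -0.34 to 0.12 with limma on log2(FPKM + 0.1) and 0.11 on log2(FPKM + 1). The cause of these differences was not tested. Where libraries were left out, their number and their content changed together. A threshold of 1 or 100 counts in total would have given 92 or 74 genes.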
